A study of Mus musculus with 14 samples.

Results

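The 10 genes Twist1, Twist2, Tcf21, Prrx1, Snai1, Snai2, Zeb1, Zeb2, Runx1 and Runx2 encode transcription factors of mesenchymal cells and of the epithelial-mesenchymal transition. They were chosen by name, and all 10 were found among the 21938 protein-coding genes of GENCODE release M21 on the mouse assembly mm10. For each of them the H3K4me1 sites were mapped over the gene and 100 kb to either side. Together these windows held 406 of the 160108 sites on chromosomes.

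H3K4me1 was measured by ChIP-seq in immortalized mouse embryo fibroblasts (iMEF, clone NG3) in which the floxed exon 4 of both endogenous Ash2l alleles had been deleted with a Cre-ER recombinase. All cells, the controls included, lived on a lentiviral FKBP-HA2-ASH2L, a fusion of human ASH2L with the degradable FKBP12F36V domain, which the PROTAC dTAG-13 marks for degradation. ASH2L is a core subunit of the KMT2 complexes, which methylate histone H3 at lysine 4. The 6 conditions were a control without dTAG and dTAG for 30 min, 2, 4, 8 or 16 h, with 2 replicates each, beside 1 input of the control and 1 input of dTAG 16 h. NG3 is a single clone, so the replicates share its history. The table used here is 1 set of sites over all samples and gives their positions alone. In it a site has no time point, replicate or read depth. Changes with dTAG at single time points were not analysed here, and where no site was listed, absence of the mark and too few reads cannot be told apart.

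These factors act in layers. TWIST1, TWIST2 and TCF21 are basic helix-loop-helix proteins that bind E-boxes with E-protein partners, and PRRX1 is a paired-related homeodomain protein of limb and craniofacial mesenchyme. SNAI1, SNAI2, ZEB1 and ZEB2 are zinc finger proteins that bind E-boxes of the CAGGTG kind and repress epithelial genes such as Cdh1. RUNX1 and RUNX2 bind DNA with their partner CBFB and are known from blood formation and from bone formation, and each is transcribed from a distal and a proximal promoter. H3K4me1 is a mark of enhancers and of the flanks of active promoters, where H3K4me3 holds the centre.

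The transcription start sites (TSSs) fell into genes whose start lay inside a site and genes whose start lay in a gap between sites. The promoters of Snai1, Twist1 and Zeb2 show such an edge between marked and unmarked sequence. Capitals are bases inside an H3K4me1 site and lower-case letters are bases outside any site. Each runs from 250 bp before to 29 bp after the TSS of RefSeq on mm10, where the TSS itself is position 0. The Snai1 promoter is chr2:167537945-167538224 on the + strand, the Twist1 promoter chr12:33957421-33957700 on the + strand, and the Zeb2 promoter chr2:45117413-45117692 on the - strand. 8 of the 10 genes had a promoter in the RefSeq table, and Snai2 and Zeb1 were missing from it. Zeb2 had 4 promoters there, and only the first listed, near its most upstream start, was printed and searched.
Snai1: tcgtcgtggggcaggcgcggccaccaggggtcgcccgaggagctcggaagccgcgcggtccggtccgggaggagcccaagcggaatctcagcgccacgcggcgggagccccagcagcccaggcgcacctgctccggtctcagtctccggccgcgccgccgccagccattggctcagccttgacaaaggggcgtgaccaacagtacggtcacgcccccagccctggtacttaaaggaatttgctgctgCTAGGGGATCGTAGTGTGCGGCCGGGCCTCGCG
Twist1: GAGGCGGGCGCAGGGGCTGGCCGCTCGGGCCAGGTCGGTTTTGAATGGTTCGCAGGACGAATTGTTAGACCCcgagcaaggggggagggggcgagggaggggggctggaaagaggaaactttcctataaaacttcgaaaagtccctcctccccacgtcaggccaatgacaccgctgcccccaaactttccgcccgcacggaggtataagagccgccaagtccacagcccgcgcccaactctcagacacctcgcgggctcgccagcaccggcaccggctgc
Zeb2: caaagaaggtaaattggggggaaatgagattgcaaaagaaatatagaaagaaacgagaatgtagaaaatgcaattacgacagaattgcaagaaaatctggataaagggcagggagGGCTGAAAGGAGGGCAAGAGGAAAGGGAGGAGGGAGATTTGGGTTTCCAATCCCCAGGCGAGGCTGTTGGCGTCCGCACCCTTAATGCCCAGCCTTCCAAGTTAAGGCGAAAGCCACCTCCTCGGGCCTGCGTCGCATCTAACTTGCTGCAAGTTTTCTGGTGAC

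In Snai1 the site opened 3 bp before the TSS, so that the 33 last bases of the printed stretch were marked. In Twist1 the 72 bases from -250 to -179 belonged to the upstream site, and the TSS itself lay in unmarked sequence. In Zeb2 the site opened at -135 and took in 165 of the 280 bases. The RefSeq TSS of Zeb2 lay at -47 bp from its most upstream GENCODE TSS. The Snai1 promoter held 1 match to the E-box CAGGTG (read on either strand), which began at -126 in the unmarked part. The printed stretches of Twist1 and Zeb2 held none, and the other RefSeq promoters of Zeb2 were not searched. Of 32851 RefSeq promoters of mouse genes, 20.2% held this word, so a single match is a description of the sequence and not a bound site. That share was counted over the whole RefSeq promoter sequences, and the matches of the 3 genes over the printed stretches alone.

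Of the 10 genes, 7 had their most upstream TSS inside a site: Prrx1, Runx2, Snai1, Zeb1, Twist2, Runx1 and Zeb2. Over all protein-coding genes the share was 39.5%. A site lay within 1 kb of the TSS in 9 of 10 genes, against 63.9% of protein-coding genes, and Tcf21 was the exception. With RefSeq gene starts in place of those of GENCODE, the number of covered starts was again 7. The set pools control and dTAG libraries, and the paper reports that H3K4me1 gains after dTAG lay almost only at promoters. Which of these starts were covered in the control cannot be told from the pooled set.

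The 7 covered starts differed in how far the site reached. From here on, positions are given in bp from the most upstream GENCODE TSS in the direction of transcription. At Prrx1 the site ran from -1778 to 4216 and measured 5995 bp. At Runx1 it ran from -3390 to 2918 and measured 6309 bp. These GENCODE starts lay deep within their sites. The RefSeq start of Prrx1, at -1435, was also covered but lay nearer to the upstream edge.

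At Twist2 the site reached from -2416 to 1778, and at Zeb1 from -888 to 3200. The sites at the Runx2 and Zeb2 starts were the narrowest of the 7, with 1458 bp (-692 to 765) and 1813 bp (-182 to 1630). Snai1 was one-sided. Its site began at -3 and went on to 6755, which covered 100% of the 4620 bp gene, and a separate site of 684 bp lay upstream from -959 to -276.

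Twist1 and Snai2 had a site on each side of an uncovered TSS. The gap at Twist1 was 374 bp long, from -178 to 195, between sites of 1458 and 1609 bp. The gap at Snai2 was 410 bp long, from -388 to 21, between sites of 925 and 1636 bp. Both gaps held the TSS, but in Snai2 it lay 22 bp from the edge of the downstream site and in Twist1 179 bp from the edge of the upstream one. This arrangement, a free TSS with a site within 1 kb on either side, was found at 2 of the 10 genes and at 13.7% of protein-coding genes, so that its frequency here was near the background.

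Tcf21, a factor of epicardial and visceral mesenchyme, stood apart. Its TSS lay in a gap of 19973 bp, from -16605 to 3367, and no base within 1 kb of the TSS and no base of the 2894 bp gene was covered. The nearest site, of 1146 bp, began 3368 bp from the TSS, behind the end of the gene.

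**Figure D1:**
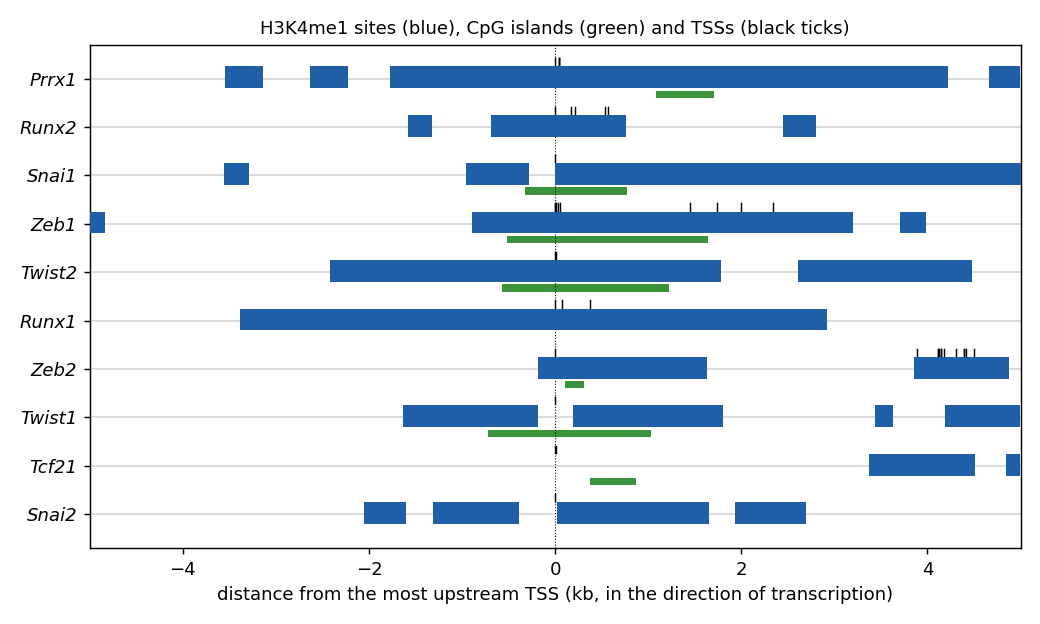
Sites within 5 kb of the most upstream TSS of each gene, by distance in kb, with genes ordered by sites per 100 kb. Blue bars are H3K4me1 sites, green bars CpG islands and black ticks annotated TSSs, and the 3 lowest genes, Twist1, Tcf21 and Snai2, have no site over position 0.

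CpG islands, stretches rich in CpG that most housekeeping and many developmental promoters carry, were present within 1 kb of the TSS in 6 of 10 genes (Snai1, Zeb1, Twist2, Zeb2, Twist1 and Tcf21). Among protein-coding genes with such an island, the TSS was covered in 56.6% and a site lay within 1 kb in 93.0%. Of the 6 factor genes with an island, 4 had a covered TSS. The island of Tcf21, 490 bp long and starting 375 bp behind the TSS, had 0% of its bases in a site, whereas the islands of Zeb1 (2158 bp) and Twist2 (1795 bp) were covered in full. The island of Twist1 was covered to 78.6% and that of Snai1 to 75.3%, each with its unmarked part around or just before the TSS.

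The 4 genes without an island within 1 kb, Prrx1, Runx2, Runx1 and Snai2, all had a site within 1 kb of the TSS, and 3 of them a covered TSS. Among protein-coding genes without an island, 30.0% had a site within 1 kb and 19.5% a covered TSS. The widest sites over a TSS, those of Runx1, Snai1 and Prrx1, thus included 2 genes without an island within 1 kb. At Prrx1, however, an island of 620 bp lay 1089 to 1708 bp behind the TSS, just outside this distance, and was covered in full by the same site. Its place in the group without an island therefore depends on the distance chosen.

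Runx1 and Runx2 were marked at both of their promoters. At the distal promoter of Runx1, which had no island, 3 of 3 annotated TSSs lay in the site of 6309 bp. At its proximal promoter, 128821 to 130654 bp further on and with an island of 2073 bp, 3 of 4 TSSs lay in a site. Runx2 had 5 of 5 TSSs covered at the distal promoter, again without an island, and 5 of 6 at the proximal one, at 78149 to 80104 bp, which had an island of 2185 bp. The mark at the distal promoter was broad in Runx1 and narrow in Runx2, where the site at the TSS measured 1458 bp.

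Zeb2 had most annotated starts, 29 in all. The start furthest upstream and all 25 starts of the group from 3887 to 7319 bp were covered, and 3 internal starts, at 63154 bp and beyond, were not. In Zeb1, 10 of 11 TSSs were covered and the exception was internal, at 139221 bp. In Prrx1 it was 4 of 5, with the exception at 24486 bp.

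Ranked by sites per 100 kb of window, the genes fell into a group of 7 and a group of 3. Prrx1 led with 19.4 sites per 100 kb (52 sites), a density above that of 97.1% of protein-coding genes. Runx2 followed with 18.3 (95 sites) and Snai1 with 16.6 (34 sites). These 3 came from different families of factors.

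Zeb1 had 15.1 sites per 100 kb (58 sites), Twist2 13.4 (33 sites), Runx1 13.0 (55 sites) and Zeb2 12.0 (40 sites). Twist1 (6.43), Tcf21 (6.41) and Snai2 (6.39) had 13 sites each and could not be ordered, since 1 site more or less would change their places. The pairs of close relatives were therefore split, with Twist2 above Twist1 and Snai1 above Snai2, whereas Zeb1 and Zeb2 and Runx1 and Runx2 stayed within the group of 7. The median of the 10 genes was 13.2 and that of all protein-coding genes 8.72, with quartiles of 3.89 and 12.7. The 3 lowest genes lay between the lower quartile and the median of all protein-coding genes. Per base outside repeats, however, Snai2 lay above 56.7% of protein-coding genes, and the step between the groups was small, from 15.5 in Zeb2 to 13.9 in Snai2.

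**Figure D2:**
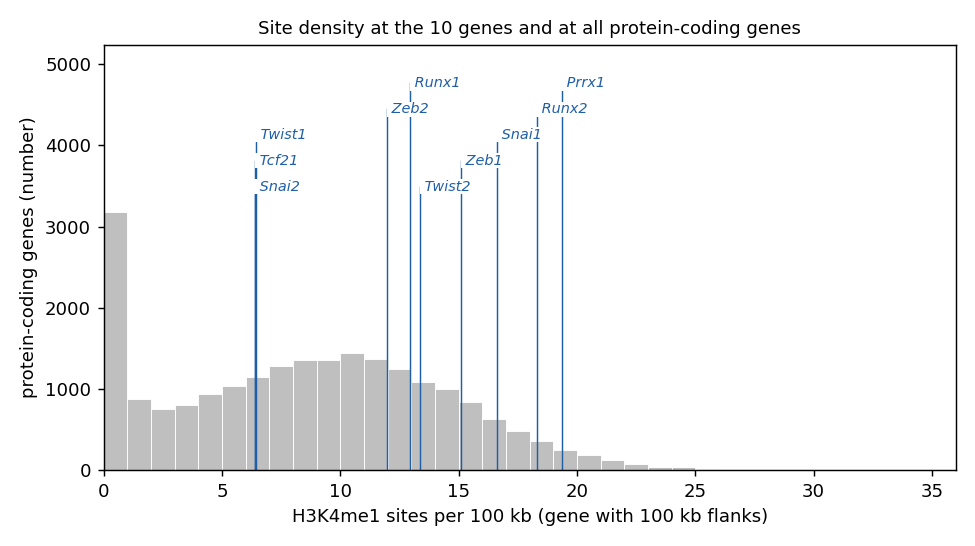
H3K4me1 sites per 100 kb (x axis) in windows of a gene and its 100 kb flanks, as a histogram over all protein-coding genes (y axis, number of genes) with a blue line for each of the 10 factor genes. Twist1, Tcf21 and Snai2 lie together at 6.39 to 6.43, and the other 7 genes lie between 12.0 and 19.4.

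The share of bases covered gave a different order at the top. Snai1 had 29.7% of its window in sites, more than 98.1% of protein-coding genes, followed by Twist2 with 20.4% and Runx1 with 18.7%. Prrx1, first by number, was the fifth by coverage with 14.6%, and its median site measured 523 bp, against 750 bp in Snai1, 1057 bp in Twist2 and 935 bp in Runx1. The 3 lowest genes were again Twist1 (5.98%), Tcf21 (4.84%) and Snai2 (3.54%). Over the 10 genes the median was 14.1%, and over protein-coding genes it was 8.12%.

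Snai1 lay in the most crowded window. The window held 6 other protein-coding genes, with Rnf114 as its upstream and Ube2v1 as its downstream neighbour, and 9 of its 34 sites were within 1 kb of a TSS of another gene. Without such sites the density of Snai1 was 12.2 per 100 kb and its rank moved from 3 to 4. Prrx1 fell to 16.4 and rank 2, behind Runx2 at 17.3. Tcf21 fell from 6.41 to 4.93 and became the last, and Twist1 and Snai2 were at 6.43 and 6.39 as before. The split of 7 and 3 was the same.

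**Figure D3:**
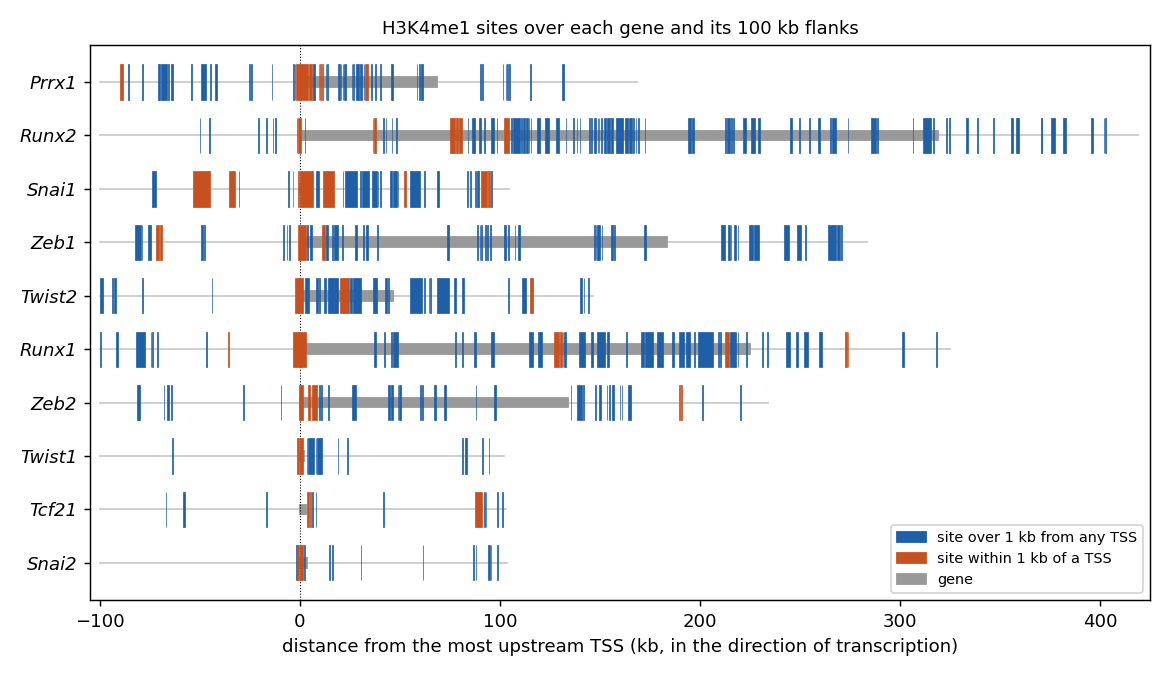
Every H3K4me1 site over the 10 genes and their 100 kb flanks, by distance from the most upstream TSS in kb in the direction of transcription. Grey bars are genes, blue bars sites more than 1 kb from any TSS and orange bars the other sites, and long runs without a site are seen upstream of Snai2 and Twist1.

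Most of the sites lay away from promoters. Of the 406 sites, 353 (86.9%) were more than 1 kb from any annotated TSS, against 81.2% of all sites. By their centres, 202 (49.8%) lay in one of the 10 genes, 189 of them in introns, 75 (18.5%) in the upstream and 129 (31.8%) in the downstream flanks. The median width was 642 bp (quartiles 360.5 and 1276), close to the 603 bp (348 and 1134) of all sites.

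The flanks were unequal. In 9 of 10 genes more sites were centred in the 100 kb downstream of the gene than in the 100 kb upstream, against 42.1% of protein-coding genes, whose medians were 8 and 8. Among protein-coding genes, 9232 had more sites downstream, 9164 had more upstream and 3542 had equal numbers. Over the 10 factor genes the mean numbers were 12.9 downstream and 7.5 upstream. In Runx1 the lead was narrow, with 10 sites downstream and 9 upstream. Prrx1 was the exception, with 18 upstream and 8 downstream. The other extreme was Snai1, with 9 upstream and 24 downstream. By bases covered the downstream flank was ahead in 8 of 10 genes, since in Runx1 the upstream flank, at 11.3%, was ahead of the downstream flank, at 9.35%. For bases covered the share over all protein-coding genes was not computed, so this count has no background beside it.

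**Figure D4:**
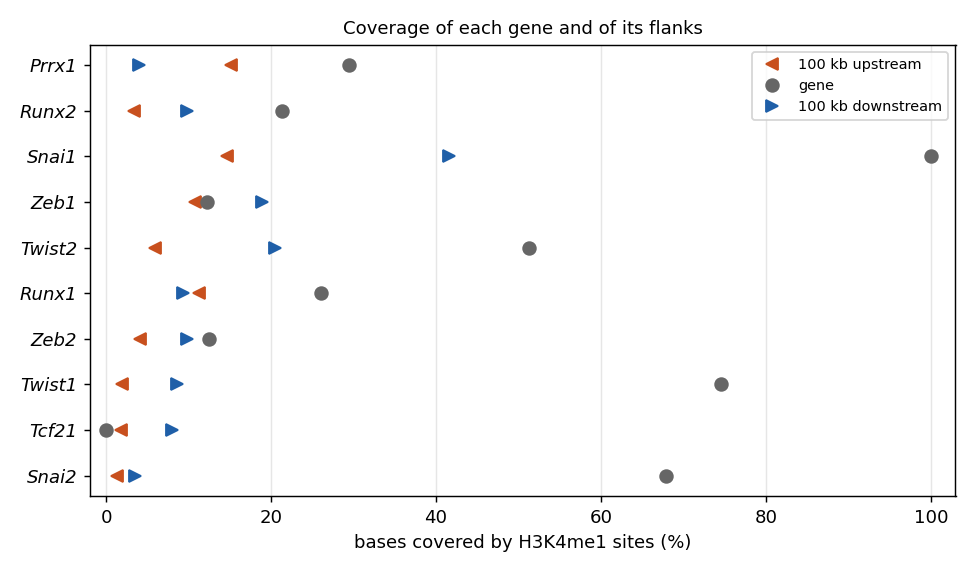
Percent of bases in H3K4me1 sites (x axis) in the 100 kb upstream (orange), the gene (grey) and the 100 kb downstream (blue) of each factor gene. Gene bodies range from 0% in Tcf21 to 100% in Snai1, and the downstream flank of Snai1 reaches 41.5%.

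Gene bodies were covered to a very different extent. Apart from Snai1 (100%) and Tcf21 (0%), the short genes Twist1 (2159 bp) and Snai2 (3534 bp) had 74.5% and 67.9% of their bases in sites. Among the long genes the share was 51.3% in Twist2, 29.5% in Prrx1, 26.1% in Runx1, 21.4% in Runx2, 12.4% in Zeb2 and 12.2% in Zeb1. In a short gene the body is little more than the promoter and its flank, so these shares describe other kinds of sequence in the 2 groups.

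Sites of at least 5 kb were present in the windows of 4 genes, 1 in Prrx1, 3 in Snai1, 2 in Twist2 and 2 in Runx1, whereas 21.1% of protein-coding genes had such a site in their window. The widest, of 7579 bp, lay in an intron of Runx1 between 198797 and 206375 bp from the TSS (chr16:92619774-92627352). It was thus far from both promoters. The other broad site of Runx1 was the one at its distal TSS.

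In Snai1 the broad sites were the one over the gene and others of 5522 and 6274 bp at 11543 and 22344 bp. In Twist2 both, of 5658 and 5610 bp, were behind the gene, at 55224 and 68736 bp. Twist2 had, moreover, the longest stretch of closely spaced sites. When sites with gaps of up to 1 kb were joined, 7 of them made 18490 bp from 11902 to 30391 in its intron, of which 15471 bp were covered. The longest such stretch of Prrx1 was 11195 bp around its TSS (5 sites) and that of Runx2 11510 bp within the gene (8 sites). In Snai2 it was 4747 bp, made of the 4 sites at the gene itself.

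The 3 sparse loci held long empty runs. Snai2 had no site from -100000 to -2053, that is in 97948 bp, which was nearly its whole upstream flank, and its upstream neighbour A630010A05Rik lay 71743 bp away with 2.94 sites per 100 kb. Of its 13 sites, 4 lay at the gene, from -2052 to 2694, and 5 lay between 86589 and 99059 bp. Twist1 had a run of 61614 bp without a site, from -63250 to -1637, which included the neighbour Ferd3l at a distance of 28360 bp. Behind the gene, Twist1 had 4 sites from 3434 to 11197, the widest of 2959 bp, and 4 of its 13 sites lay between 80971 and 94655 bp, where those at 91204 and 94428 bp were in the neighbouring gene Hdac9.

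Of the 13 sites of Tcf21, 4 lay within 8238 bp behind the TSS and 5 within or at Tbpl1, its downstream neighbour. The widest site of its window, of 3377 bp at 87562 bp, was at a TSS of Tbpl1 and not of Tcf21. Dense loci held empty runs too. Runx2 had none of its 95 sites from -100000 to -49924, and in Runx1 the 34196 bp behind the distal site were empty.

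The words recognised by 4 families of factors were counted in the central 200 bp of each site, on both strands. They were TGTGGT for RUNX, CAGGTG for SNAI, ZEB and some helix-loop-helix factors, TGANTCA for AP-1 and GGAATG for TEAD, of which the last 2 are factors of many fibroblast enhancers. Matches of different words were counted separately, also where they shared bases. The RUNX word was present in 16.3% of the 406 sites (95% Wilson interval 13.0 to 20.2) and in 16.8% of all sites. The E-box was present in 13.8% (10.8 to 17.5), against 14.1% of all sites.

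AP-1 words were found in 11.6% (8.82 to 15.1) and TEAD words in 12.3% (9.47 to 15.9), against 12.7% and 14.4% of all sites. The intervals, which cover the counting of sites alone and treat neighbouring sites as independent, held the value of all sites for each of the 4 words. Single loci had few sites and wide intervals, and no word was tested at any of them. The highest shares were those of AP-1 and TEAD at Snai2, each in 4 of 13 sites, or 30.8% (12.7 to 57.6). The E-box was in 26.5% of the sites at Snai1 (14.6 to 43.1), 23.1% at Snai2, 15.5% at Zeb1 and 12.5% at Zeb2. At the other loci it ranged from 5.77% at Prrx1 to 15.4% at Twist1 and Tcf21. The RUNX word was in 21.8% at Runx1 (12.9 to 34.4), where TEAD reached 23.6%, and in 18.9% at Runx2. Elsewhere the RUNX word ranged from 7.69% at Twist1 to 18.2% at Twist2. No match was found in 229 of the 406 sites, and 13 held 3 or more.

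Of these 13 sites, 10 lay more than 1 kb from any TSS. The 4 of them at the loci of Prrx1, Snai1, Twist2 and Runx1 are shown. The others of the 10 lay at Zeb1 and Snai2, the genes without a promoter in the RefSeq table, and are not printed. Their central 200 bp are printed on the strand of the factor gene, with the matches in capitals. The site of Prrx1 was chr1:163212120-163212319 on the - strand, behind the gene. That of Snai1 was chr2:167570945-167571144 on the + strand, also behind the gene, in the middle of a site of 3525 bp. That of Twist2 was chr1:91845530-91845729 on the + strand and that of Runx1 chr16:92729597-92729796 on the - strand, both in introns.
Prrx1: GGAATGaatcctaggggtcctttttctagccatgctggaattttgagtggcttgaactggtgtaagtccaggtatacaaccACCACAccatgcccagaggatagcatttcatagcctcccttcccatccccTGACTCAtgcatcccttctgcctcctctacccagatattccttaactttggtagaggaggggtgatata
Snai1: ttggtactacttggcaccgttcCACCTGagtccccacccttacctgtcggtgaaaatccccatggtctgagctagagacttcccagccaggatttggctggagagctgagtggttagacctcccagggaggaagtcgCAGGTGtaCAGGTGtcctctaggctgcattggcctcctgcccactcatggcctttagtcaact
Twist2: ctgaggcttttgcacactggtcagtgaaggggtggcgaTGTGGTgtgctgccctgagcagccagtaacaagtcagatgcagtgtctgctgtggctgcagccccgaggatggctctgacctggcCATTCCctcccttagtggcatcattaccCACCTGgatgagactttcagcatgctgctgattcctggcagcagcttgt
Runx1: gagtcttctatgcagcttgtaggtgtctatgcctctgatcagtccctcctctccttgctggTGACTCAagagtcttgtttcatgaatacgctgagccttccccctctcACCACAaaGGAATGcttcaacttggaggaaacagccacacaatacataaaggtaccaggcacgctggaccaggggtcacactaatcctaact

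The Snai1 site, 32849 bp from the TSS, held 3 E-boxes and none of the other words. The Twist2 site, at 44168 bp, held 1 word each of RUNX, E-box and TEAD. The Runx1 site, at 96453 bp, and the Prrx1 site, at 101491 bp, each held 1 word of AP-1, 1 of RUNX and 1 of TEAD. These are matches of letters, and binding was not measured.

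Other genes were compared by the same measures. Over all protein-coding genes, 39.5% had a covered TSS and 63.9% a site within 1 kb. Among 19 relatives and partners of the 10 factors, 12 had a covered TSS and 17 a site within 1 kb, with a median of 10.7 sites per 100 kb. Of those with a covered TSS, Id1 (24.4), Runx3 (22.1) and Id3 (18.8) had the most sites per 100 kb, and Hand2 (3.93), Msc (5.43) and Id4 (5.86) the fewest. ID proteins bind E-proteins and keep them from their helix-loop-helix partners.

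Mesenchymal effector genes, which encode matrix, cytoskeleton and surface proteins of fibroblasts, had a covered TSS in 13 of 16 and a median of 14.0 sites per 100 kb. Acta2 (21.9), S100a4 (19.8) and Col1a2 (19.4) led among those with a covered TSS, and Cdh11 (4.24), Pdgfra (4.88) and Postn (10.9) were the lowest. Epithelial genes, many of them repressed by SNAI and ZEB factors in mesenchymal cells, were close to the 10 factors, with a covered TSS in 9 of 16, a site within 1 kb in 12 of 16 and a median of 12.9. Of those with a covered TSS, Krt8 (19.7), Ovol1 (17.02) and Cldn4 (14.4) had the most, and Ocln (8.59), Epcam (8.83) and Crb3 (9.19) the fewest. An island lay within 1 kb of the TSS in 14 of the 16 epithelial genes and in 7 of the 16 effector genes. The lists were not matched for islands. The medians of the 10 factor genes and of the epithelial genes, 13.2 and 12.9, were thus nearly equal. Some genes of a list lie close together and their windows share sites, so the genes of a list are not all separate loci.

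Of 23 factors of other lineages, 7 had a covered TSS and 9 a site within 1 kb, and the median was 6.91, below that of all protein-coding genes. Tbx21 (15.2), Neurod1 (10.3) and Mitf (10.1) had the most among those with a covered TSS, and Pax6 (3.94) and Sox2 (3.96) were among those with the fewest. The densities of Twist1, Tcf21 and Snai2, 6.39 to 6.43, lay near this median.

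**Figure D5:**
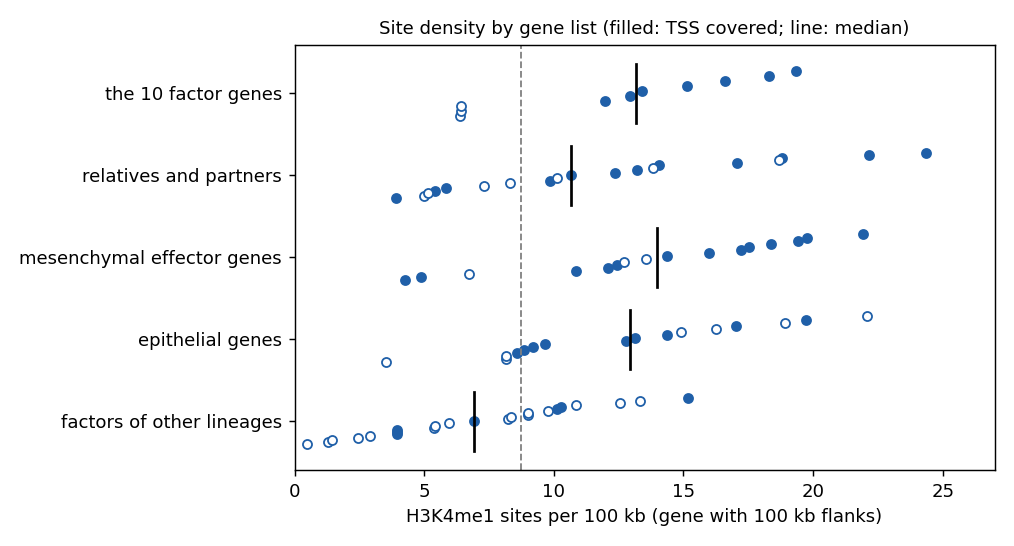
H3K4me1 sites per 100 kb (x axis) for each gene of 5 lists, with filled points for genes with a covered TSS, a black line at the median of the list and a dashed line at the median of all protein-coding genes, 8.72. The medians are 13.2 for the 10 factor genes, 10.7, 14.0, 12.9 and 6.91 from top to bottom.

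The label of the cells was checked against defining genes. Of 7 fibroblast markers, 6 had a covered TSS (Col1a1, Col1a2, Pdgfra, Pdgfrb, Thy1 and Dcn), and Lum had neither a covered TSS nor a site within 1 kb. The windows of Dcn and Lum held few sites, with 0.84 and 0.48 per 100 kb, against a median of 12.1 over the 7 markers. A covered TSS was found in 1 of 5 blood cell markers (Cd68), 2 of 4 endothelial markers (Kdr and Tek), 3 of 4 epithelial markers (Krt14, Cdh1 and Epcam) and 1 of 4 neural markers (Snap25). Over all protein-coding genes the share was 39.5%. With 3 of 4 epithelial markers covered as well, covered starts did not tell fibroblasts from epithelial cells, and the label rests on the source of the cells. A site records the mark and not transcription, and RNA was not analysed here. As the set pools control and dTAG libraries, these counts do not describe the control cells alone.

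The loci of the neighbours were not uniform either. Among the genes nearest to the 10 factors, Setd4 and Clic6 at Runx1 had 9.07 and 14.9 sites per 100 kb, Cdc5l and Clic5 at Runx2 13.6 and 12.7, and Gorab and Mroh9 at Prrx1 18.7 and 6.89. Supt3, which overlaps Runx2, had 11.8. Zfp438 and Arhgap12 at Zeb1 had 14.8 and 9.30, Asb1 and Hdac4 at Twist2 11.0 and 15.8, and Acvr2a and Gtdc1 at Zeb2 5.19 and 6.75. Zeb2, with 12.0, was thus denser than both of its neighbours, of which Acvr2a lay 3696713 bp away. Prrx1, Runx2 and Zeb1 were also denser than both of theirs. The leads of Prrx1 (19.4) over Gorab and of Zeb1 (15.1) over Zfp438 were small. Runx1 and Twist2 each lay between their neighbours. Rnf114 and Ube2v1 at Snai1 had 13.0 and 20.9, Ferd3l and Hdac9 at Twist1 4.98 and 8.32, Eya4 and Tbpl1 at Tcf21 18.1 and 10.5, and A630010A05Rik and Efcab1 at Snai2 2.94 and 6.19. Tcf21 was thus sparser than both of its neighbours, and Snai2, though last of the 10, was denser than both of its own, with a small difference from Efcab1. Windows of neighbours closer than 200 kb share sequence with that of the factor gene, so these values are not independent.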

How the data were processed

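Before deposit, the authors processed the reads with Trim Galore (trimming), BWA (alignment to mm10), samtools (filtering), Picard MergeSamFiles (pooling of replicates) and Macs (broad peaks), whose versions are not given in the sources used here. Per the labels, deepTools and DESeq2 were used too. The deposited values used here are positions in bp (starts counted from 0, printed from 1) of 160144 sites in 1 pooled set. This table holds no read counts, so depth is unknown, and no test between conditions was made from it. The list of changed sites per time point that the supplement names, and the reads, were not used here.

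Overlaps were computed in Python 3.11.15 (numpy 2.4.6, pandas 2.3.3, scipy 1.17.1, numba 0.67.0, figures with matplotlib 3.10.9) with GENCODE M21, and M25, named in the paper, was not used here. A promoter was the 1 kb around the most upstream TSS, and TSSs within 2 kb were 1 promoter region. CpG islands needed over 200 bp, 50% GC and an observed to expected ratio of 0.6. Functions were tested on simulated data: all window counts were right in 500 of 500 cases, and 50 of 50 islands were found, with both ends within 60 bp for 49 in a background of 10% C and 10% G and for 39 with 18% each. Besides the 10 genes, the text names their nearest protein-coding neighbours, the gene under the widest site and, in each list, the genes with a covered TSS or the 3 densest and 3 sparsest of them. Lum was named after its values were seen, and 1 gene that the rule would name is not reported here. The genes and lists were chosen with earlier results of these data known. Alternatives changed flank size, minimum width, merging, TSS set, overlap and unit of density.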

Additional observations from a re-analysis of the deposited data

How the results depend on the processing

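Of 38 alternatives over 7 results, 30 stayed within 1.5 times the reported value. For the ranks, the value compared was how many of the 7 densest genes stayed among the first 7, and not the rank of each gene. Without flanks the median coverage was 27.8% (14.1% with 100 kb), the median density 22.3 sites per 100 kb (13.2) and the number of sites 204 (406). Merging sites within 1 kb gave a median density of 8.65, 251 sites and a widest site of 18490 bp (7579). Sites of at least 500 bp numbered 242, and flanks of 200 kb held 614. The number of genes with a covered TSS was 7 under all alternatives run but merging, which closed the gaps at Twist1 and Snai2 and gave 9. With flanks of 200 kb the step between the groups was from 9.74 in Zeb2 to 8.69 in Tcf21. The 7 densest genes were the same 7 under all alternatives but the one without flanks, where 5 of them were among the first 7, and Snai2 and Twist1, at 56.6 and 46.3 sites per 100 kb of gene, came first. For the ranks, the alternative that left out sites at TSSs of other genes was chosen after seeing the data. Single ranks moved more. Over the alternatives Runx1 ranged from rank 2 to rank 8, Prrx1 from 1 to 5, Twist1 from 2 to 10 and Snai2 from 1 to 10. Tcf21 stayed between 8 and 10. No paired analysis was possible because single libraries have no values in the pooled set.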

Other observations

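Counted per base outside repeats, the order of the 10 genes shifted, since the loci differ in how much repeat-masked sequence they hold. Zeb1 rose from rank 4 to rank 2 with 25.1 sites per 100 kb of unmasked sequence, and Runx2 moved from 2 to 4 with 23.4. Snai2, the last by total length, had 13.9 and rank 8, ahead of Tcf21 (10.4) and Twist1 (10.2).

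Some islands away from the annotated starts of the 10 genes differed in their coverage. In Runx1 an island of 524 bp at 220025 bp had no base in a site, whereas an island of 637 bp in Runx2, at 37170 bp, was covered in full. In the Tcf21 window the island of 1359 bp at Tbpl1 was covered in full, and the islands of 280 and 203 bp before it were not covered at all.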
